A study of Mus musculus with 12 samples.

Results

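Adenosine handling was followed through 10 named genes among the 56748 genes of the mouse table, chosen by gene symbol: the equilibrative nucleoside transporters Slc29a1, Slc29a2, Slc29a3 and Slc29a4, the enzymes Adk, Ada and Nt5e, and the adenosine receptors Adora1, Adora2a and Adora2b. All 10 were listed in the table. Slc29a1 led the choice because its values differed between KO and Het whole retina, so its values in whole retina are described here and carry no test.

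The study deleted Shp2, the tyrosine phosphatase encoded by Ptpn11, in rod photoreceptors and asked how the mRNA on rod ribosomes changed at 2 weeks of age, by translating ribosome affinity purification (TRAP). The 12 libraries formed 4 groups of 3. Het rods and KO rods are TRAP RNA from RiboTag;Shp2fl/+;i75-Rod-Cre mice and their RiboTag;Shp2fl/fl;i75-Rod-Cre littermates, and Het retina and KO retina are the whole-retina RNA of the same genotypes. In all of them a rhodopsin-promoter Cre was present, which also switched on the HA-tagged Rpl22 that TRAP captures, so the controls were not wild type: they carried 1 floxed Shp2 allele exposed to the Cre. All tissue came from mice perfused with cycloheximide.

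Adenosine is a nucleoside that cells release, take up and recycle. Outside the cell it is made from ATP by a chain of surface enzymes ending in Nt5e (CD73), it acts on G protein-coupled receptors, and it leaves the extracellular space mainly through the equilibrative transporters, which let it flow down its gradient in either direction. Inside the cell Adk phosphorylates it back to AMP and Ada converts it to inosine. In the retina extracellular adenosine is known to rise in darkness and to act on photoreceptors and inner neurons.

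Because Slc29a1 and Nt5e are the transporter and the enzyme on which the results turn, the 250 bases before a RefSeq transcription start of each are printed from the GRCm38.p6 build, read 5′ to 3′ on the strand of the gene. The Slc29a1 window is chr17:45599619-45599868 on the minus strand, the outermost of 8 listed for the gene, and the Nt5e window is chr9:88327359-88327608 on the plus strand. Capitals mark the 6-base core bound by the photoreceptor homeobox factor Crx, TAATCC, or its reverse complement GGATTA, searched on both strands.
Slc29a1: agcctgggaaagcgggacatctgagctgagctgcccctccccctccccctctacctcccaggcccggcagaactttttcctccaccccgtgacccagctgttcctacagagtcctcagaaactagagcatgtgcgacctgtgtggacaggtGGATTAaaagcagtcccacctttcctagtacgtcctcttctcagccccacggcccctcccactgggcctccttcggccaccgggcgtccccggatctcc
Nt5e: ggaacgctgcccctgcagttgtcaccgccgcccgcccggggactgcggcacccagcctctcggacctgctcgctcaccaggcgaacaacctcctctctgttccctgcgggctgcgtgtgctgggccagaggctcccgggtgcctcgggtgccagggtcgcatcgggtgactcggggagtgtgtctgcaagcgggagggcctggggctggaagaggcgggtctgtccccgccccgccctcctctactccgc

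The motif began 99 bases before the Slc29a1 start and had no match in the Nt5e window. It was found in 1 of the 18 windows of the 9 members that the RefSeq table holds (all but Adora2a) and in 6.25% of all 32851 windows of this length. The Nt5e window was GC-rich, at 72% G and C with 21 CG pairs, against 62.4% and 10 CG pairs for the Slc29a1 window. A match of this length is a description of the letters and not a binding site.

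Values are read counts that were multiplied by a factor for each library before deposit, so that totals were almost the same within a fraction, at 16263948 to 16265259 in the 6 rod libraries and 14525527 to 14527992 in the 6 retina libraries. The factors could be read from the spacing of low values in 11 of 12 libraries, and they give about 11890000 to 25280000 reads in rods and 9980000 to 19230000 in retina, with 3 reads worth 1.93 to 4.37 units. A gene was tested when at least 3 libraries reached a scaled value of 10 and the sum reached 15, and it was called when the adjusted p of limma was below 0.05 and the log2 fold change passed 0.5 in size. All 8 rod markers were higher in Het rods than in Het retina, where 21.4% of all genes tested were called higher and 36.8% lower. All 6 Müller glia, 5 amacrine and 4 of 5 bipolar markers were lower, and 0 of 5 lens markers were called. All 6 endothelial and 7 microglial markers were lower too. But all the microglial markers, and Cldn5, Cdh5, Tek and Esam among the endothelial, had no Het rod library at a value of 10. These passed the filter through retina alone and so had to be lower. Summed lens markers, which a retina should hold little of, ranged from 82 to 182904 in Het retina and from 46881 to 588580 in KO retina, and their part in the values below was not tested. Ptpn11 itself had deposited values of 2511, 2439 and 2431 in Het rods against 1735, 2139 and 1971 in KO rods, a log2 fold change of -0.26 (SE 0.09, limma adjusted p = 0.0636), and it was not called.

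**Figure D1:**
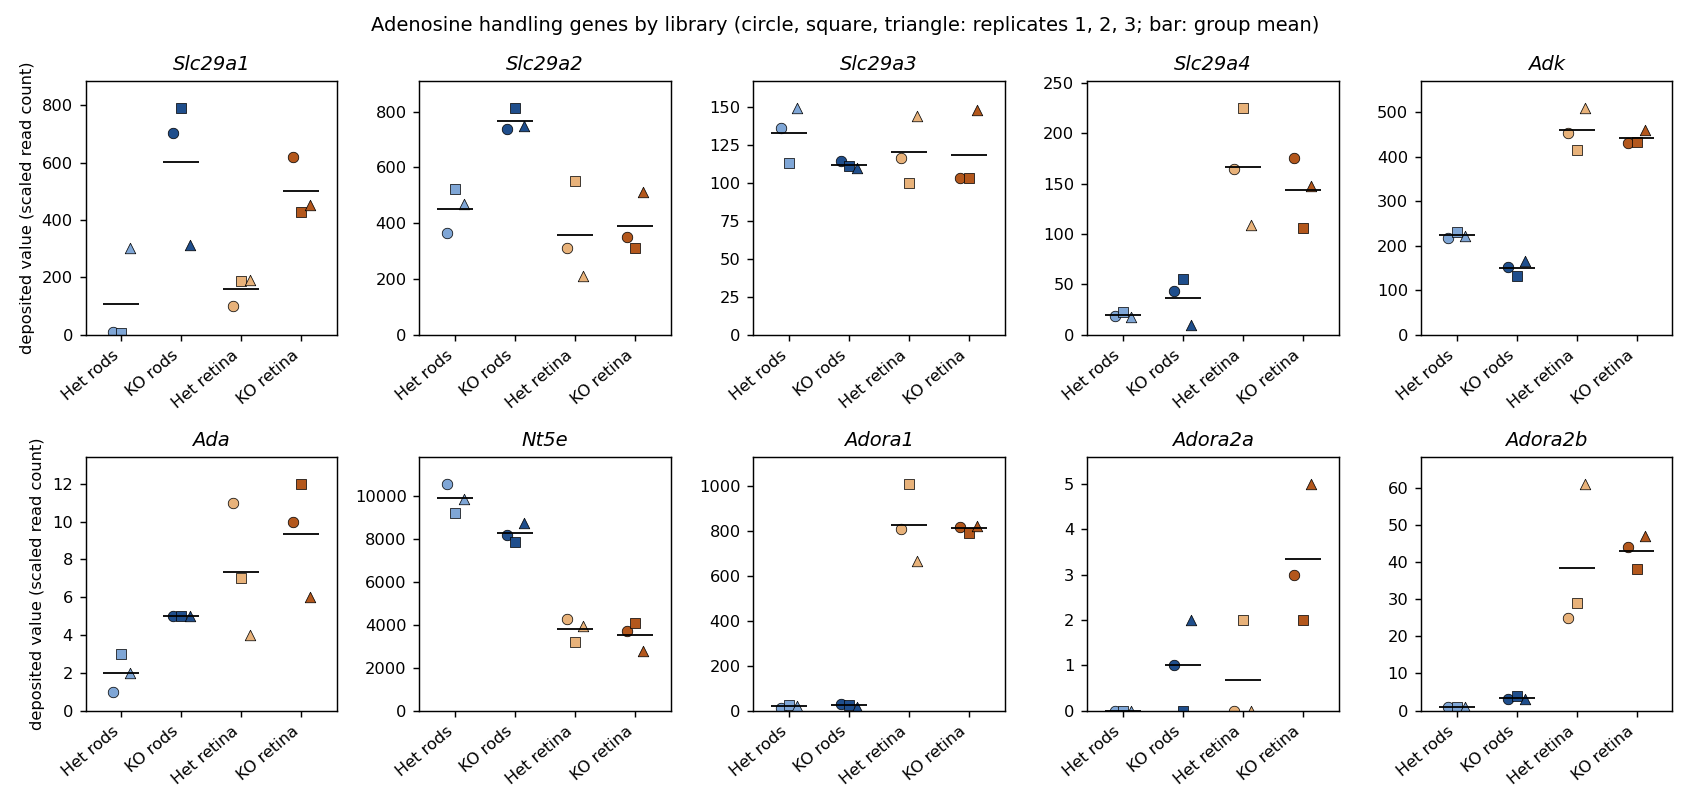
Deposited values (scaled read counts, linear axes from 0, one panel per gene) of the 10 adenosine handling genes in each library. Circles, squares and triangles are replicates 1, 2 and 3 of a group and bars are group means. Slc29a1 is at 10, 6 and 304 in Het rods and at 312 to 789 in KO rods, Slc29a2 is higher in every KO rod library than in any Het rod library, Nt5e is higher in every rod library than in any retina library, and Adora1 is at 12 to 29 in rods and 669 to 1011 in retina.

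Among the transporters, Slc29a1, the widely expressed equilibrative nucleoside transporter ENT1, had the widest spread between libraries. The deposited value was 10, 6 and 304 in Het rods, 703, 789 and 312 in KO rods, 101, 189 and 191 in Het retina, and 619, 427 and 452 in KO retina. Every KO library was above every Het library of its fraction, but in rods by a margin of 304 to 312, with replicate 3 of Het rods close to replicate 3 of KO rods and far from the other Het rods. In whole retina, the contrast that led to its choice, the TMM-scaled mean was 501 ± 94.2 in KO retina and 161 ± 54.4 in Het retina (SD, n = 3 each), a log2 fold change of 1.67 (SE 0.30). No gene was called in that contrast by limma, and 140 of 16863 genes had an unadjusted p below 0.05. The groups did not overlap for 3.52% of genes there.

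The choice rested on whole retina, but earlier results for rods were known and whole-retina RNA holds rod RNA, so the rod values are not independent of it. In rods the TMM-scaled mean of Slc29a1 was 631 ± 282 in KO rods and 106 ± 170 in Het rods (SD, n = 3 each). The log2 fold change was 4.26 with an SE of 1.69, and the gene was not called (limma, adjusted p = 0.153). The adjusted p ranged from 0.00901 to 0.443 over the alternatives. Without replicate 3 of Het rods the log2 fold change was 5.90 (SE 0.44, adjusted p = 0.00901) and the gene was called. With any other rod replicate left out it was not called, at an adjusted p of 0.231 to 0.337. These p-values are descriptions, since the rod values are not independent of the choice. Whether the change differed between rods and whole retina was not tested. Rods are the most numerous cells of the mouse retina, and rod and other-cell contributions to the retina values cannot be told apart, and neither can fewer cells of a type and less RNA per cell.

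Between fractions, Slc29a1 was 2.11 lower on the log2 scale in Het rods than in Het retina (SE 1.36) and 0.55 higher in KO rods than in KO retina (SE 0.32), both as descriptions. Without replicate 3 of Het rods the first difference was -3.79, and without replicate 1 or 2 of Het rods it was -1.43 or -1.13. When each replicate was left out, the second ranged from 0.25 without replicate 2 of KO retina to 0.97 without replicate 3 of KO rods. With scaling by library size alone the first was -2.49 (SE 1.45) and the second 0.016 (SE 0.32). An antisense gene that overlaps Slc29a1, Gm17080, reached at most 0 in rods and 12 in retina. The library kit does not mark strand, so reads of the overlap cannot be told apart.

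Slc29a2, the transporter ENT2, was the only member called higher in KO rods, a call that was lost with the GC trend removed. The deposited values were 366, 524 and 468 in Het rods against 737, 812 and 750 in KO rods, and the groups did not overlap. The scaled means were 445 ± 78.1 and 798 ± 68.3 (SD, n = 3 each), a log2 fold change of 0.85 (SE 0.13, limma adjusted p = 0.00318). In the comparison, 13.1% of the 13055 genes tested were called, 11.2% as higher and 1.91% as lower, against 1 of the 7 members that could be tested. Counted over all genes these were 1460 higher and 250 lower, or 1202 higher and 584 lower with scaling by library size alone. In whole retina the values of Slc29a2 overlapped, at 310, 551 and 212 in Het retina and 349, 312 and 511 in KO retina, with a log2 fold change of 0.21 (SE 0.36). The 8 members past the filter there other than Slc29a1 ranged from -0.18 for Slc29a4 to 0.32 for Ada, each with overlapping groups.

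The changes in KO rods moved with the GC content of the transcript. Over 12907 genes the Spearman correlation of log2 fold change with GC content was 0.70, given as a description because genes of the same libraries are not independent, and the median log2 fold change went from -0.28 among the 10% of lowest GC to 0.69 among the 10% of highest GC. Slc29a2 has a GC content of 58%, higher than 91.5% of the genes tested, and the 500 genes nearest to it in GC had a median log2 fold change of 0.62. With the GC trend of each library removed, its log2 fold change was 0.25 (SE 0.09, limma adjusted p = 0.0896) and the call was lost. Slc29a1, at 55.3% GC, had 500 nearest genes with a median of 0.36, and its log2 fold change was 3.88 (SE 1.68, adjusted p = 0.279) with the trend removed.

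**Figure D2:**
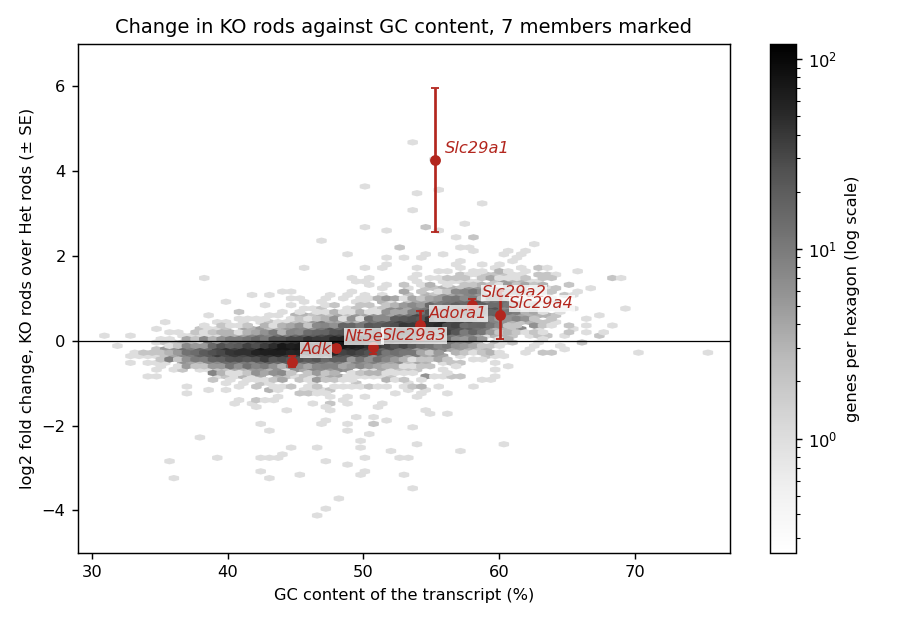
Log2 fold change of KO rods over Het rods (vertical axis) against GC content of the longest transcript in percent (horizontal axis) for the genes tested, as grey hexagons by number of genes on a log scale, with the 7 tested members in red and bars of 1 SE. The cloud climbs with GC content, Slc29a2 lies in its upper part at a log2 fold change of 0.85, and Slc29a1 lies above it at 4.26 with an SE of 1.69.

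The remaining transporters were not called in KO rods. Slc29a3, a lysosomal and mitochondrial transporter, had deposited values of 136, 113 and 149 in Het rods against 114, 111 and 110 in KO rods, which overlap, with a log2 fold change of -0.15 (SE 0.16, adjusted p = 0.51). Slc29a4, which also carries monoamines, had 19, 23 and 18 in Het rods against 44, 55 and 10 in KO rods, so that replicate 3 of KO rods was below all Het rods. Its log2 fold change was 0.61 (SE 0.56, adjusted p = 0.468), it was 1.33 without replicate 3 of KO rods (SE 0.30, adjusted p = 0.00849) and called, and it was -0.14 with the GC trend removed.

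Set against whole retina, the transporters separated. Slc29a4 was lower in Het rods than in the retina of the same genotype, by a log2 fold change of -2.65 (SE 0.30, limma adjusted p = 7.84e-05), with 18 to 23 in Het rods and 165, 225 and 109 in Het retina. It was also lower in KO rods than in KO retina, at -1.82 (SE 0.54, adjusted p = 0.0155). Without replicate 1 of KO retina the difference was -1.84 (adjusted p = 0.0556) and the call was lost, and without replicate 3 of KO rods it was -1.11 (adjusted p = 0.0125). Slc29a2 was higher in KO rods than in KO retina by 1.37 (SE 0.20, adjusted p = 0.000307). In Het mice the difference was 0.68 (SE 0.32, adjusted p = 0.0983) and not called. With the replicate number as a block, which pairs these libraries, the adjusted p was 0.0289. With RLE scaling the log2 fold change was 0.72 (adjusted p = 0.047), and without replicate 2 of Het retina it was 0.92 (adjusted p = 0.00149). All of these are calls, 3 of 13 alternatives. The log2 fold change was lowest with scaling by library size alone, at 0.27 (adjusted p = 0.493). It was 0.30 without replicate 3 of Het retina (adjusted p = 0.33), and neither of these is a call. Slc29a3 had near-equal values in all groups, from 100 to 149, and was called in neither fraction comparison.

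Nt5e, the surface enzyme that makes adenosine from AMP, was the member with the highest level in every group. Per kilobase of transcript its scaled level was 2339 ± 158 in Het rods, against 164 ± 28.9 for Slc29a2 and 116 ± 3.65 for Adk, the next in order, whose ranges did not overlap each other or that of Nt5e (SD, n = 3 each). Nt5e was at deposited values of 10542, 9212 and 9861 in Het rods and 4266, 3181 and 3918 in Het retina, and the scaled level was 3.11-fold higher in Het rods (log2 fold change 1.64, SE 0.12, limma adjusted p = 7.94e-06). In KO mice it was 8155, 7852 and 8744 in rods and 3699, 4051 and 2790 in retina, 3.07-fold higher in rods (log2 fold change 1.62, SE 0.14, adjusted p = 1.42e-05). Every rod library was above every retina library. Against Het rods, KO rods were lower in every library, with a log2 fold change of -0.18 (SE 0.07, adjusted p = 0.105), which was not called. In whole retina the genotypes overlapped, at -0.11 (SE 0.17).

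Adk, adenosine kinase, had the opposite distribution. The 3 Het rod libraries held deposited values of 217, 231 and 223, and the 3 KO rod libraries 152, 133 and 165. In whole retina the values were 453, 416 and 509 for Het retina against 431, 434 and 461 for KO retina. Het rods were lower than Het retina by a log2 fold change of -0.78 (SE 0.15, limma adjusted p = 0.00157) and lower in KO rods than in KO retina by -1.18 (SE 0.16, adjusted p = 0.000171). KO rods lay below Het rods without overlap, at -0.49 (SE 0.13, adjusted p = 0.0194), a difference that missed the fold threshold. It passed the threshold at -0.52 without replicate 1 of Het rods, at -0.54 without replicate 3 of KO rods, at -0.58 with scaling by library size alone and at -0.51 when every library had to reach 10. It was -0.30 (adjusted p = 0.154) with the GC trend removed. In whole retina the genotypes overlapped, at -0.05 (SE 0.16).

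Ada, adenosine deaminase, was near the lowest values that these libraries resolve. It was at 1, 3 and 2 in Het rods, 5 in each of the 3 KO rods, 11, 7 and 4 in Het retina, and 10, 12 and 6 in KO retina. Between KO and Het retina its log2 fold change was 0.32 (SE 0.41), with overlap. It was too low to be tested in rods or between fractions, and a difference at the level of a few reads was not detectable at this depth.

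The adenosine receptors were low in rods. Adora1, the A1 receptor, had deposited values of 12, 24 and 19 in Het rods against 29, 23 and 16 in KO rods, against 808, 1011 and 669 in Het retina and 820, 792 and 825 in KO retina. The log2 fold change was -5.14 (SE 0.28, limma adjusted p = 1.49e-06) in Het mice and -4.72 (SE 0.23, adjusted p = 1.10e-06) in KO mice, with no overlap. It was 0.37 between KO and Het rods (SE 0.34, adjusted p = 0.453) and -0.0048 between KO and Het retina (SE 0.17). Adora1 overlaps the protein-coding gene Mybph on the opposite strand, which reached at most 5 in any library. Markers of other cells were also present in rods. Summed Müller markers were at 1340 to 2016 in Het rods and 45695 to 59622 in Het retina, and summed bipolar markers at 3946 to 5334 and 13229 to 14427. Whether the rod values of Adora1 are RNA carried over from other cells was not tested.

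Adora2b was at 1 in each Het rod library and at 3, 4 and 3 in KO rods, at or near the worth of 3 reads, against 25, 29 and 61 in Het retina and 44, 38 and 47 in KO retina. It passed the filter through the retina libraries alone, so it had to differ between fractions, and its calls as lower in Het rods (log2 fold change -3.48, SE 0.38) and in KO rods (-2.78, SE 0.29) are given as a description. The size depends on the pseudocount and was -4.37 and -3.16 with a pseudocount of 0.5. Adora2a was at 0 in all Het rods, at 1, 0 and 2 in KO rods, and at 5 or less in every retina library. A value of 0 in Het rods allows up to the worth of 3 reads, 3.62, 1.93 and 3.54 units in replicates 1, 2 and 3.

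Counted over the members, and leaving out Slc29a1 and Adora2b, which carries no weight because it passed through retina alone, 1 of 6 was called higher in Het rods than in the retina of Het mice and 3 were lower. There 58.2% of 16110 genes were called, 21.4% higher and 36.8% lower. In KO mice 2 of the 6 were higher and 3 lower, where 62.2% of 16121 genes were called, 25.7% higher and 36.5% lower. In both genotypes the shares over all genes still hold genes that passed through retina alone. They are therefore not a like measure for the 6 members. Scaling by library size alone shifted the Het and the KO fraction comparison by a median of -0.41 and -0.53 on the log2 scale. Slc29a3 then turned from 0.39 to -0.01 and from 0.31 to -0.22, and the calls of Nt5e, Adk, Slc29a4 and Adora1 stayed. In KO against Het rods the groups did not overlap for 4 of the 7 tested members, Slc29a1, Slc29a2, Adk and Nt5e, where 44% of all genes tested did not overlap. The median of the 7 was 0.37, the value of Adora1, which was not called, against -0.01 over all genes. It was taken with the GC trend left in.

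**Figure D3:**
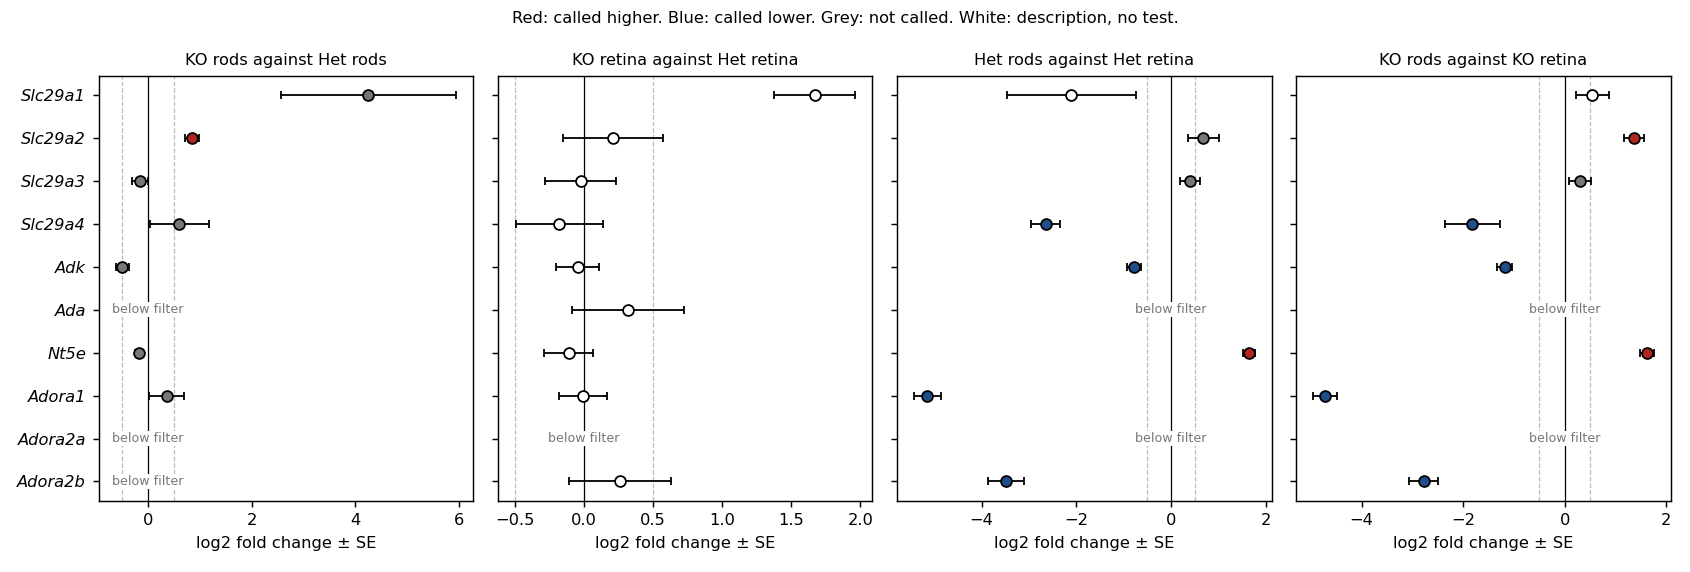
Log2 fold change with 1 SE (horizontal axes, scales differ between panels) of each member in the 4 comparisons, from limma. Red is called higher, blue called lower, grey not called and white a description with no test, and dashed lines mark log2 fold changes of -0.5 and 0.5. Slc29a2 is the called member in KO rods at 0.85, Nt5e is higher in rods than in retina in both genotypes, and Slc29a4, Adk and Adora1 are lower. Adora2b is also lower, but it passed the filter through retina alone and so had to be.

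The members were also ordered by scaled level per kilobase of transcript. Slc29a1 came after Nt5e, Slc29a2 and Adk in Het rods at 45.6 ± 73, but its range of 2.56 to 130 there spanned that of Adk. In KO rods it came after Nt5e and Slc29a2 at 257 ± 109, and its range of 133 to 337 overlapped that of Slc29a2 at 266 to 293. In Het retina Nt5e at 1005 ± 147 was followed by Adk at 268 ± 27.3, Adora1 at 177 ± 36.7, Slc29a2 at 145 ± 70.6 and Slc29a1 at 76.7 ± 24.6 (SD, n = 3). The ranges of Adora1 and Slc29a2 overlapped, and so did those of Slc29a2 and Slc29a1. In KO retina Slc29a1 followed Nt5e and Adk at 239 ± 49.9, with a range that overlapped those of Adk and Slc29a2.

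A wider list of 52 genes of purine handling and related families, not all of which act on adenosine, placed the members in context. In KO rods against Het rods, 20 of them could be tested, and 1 was higher and 1 was lower. Over all genes tested, 11.2% were higher and 1.91% lower. The 1 lower gene of the list, Dpp4, had to differ, as given below. The median log2 fold change of the 20 was -0.01, the same as over all genes to 2 decimals. Aprt, which salvages adenine to AMP, rose from 12, 17 and 17 in Het rods to 45, 52 and 51 in KO rods (log2 fold change 1.66, SE 0.26, limma adjusted p = 0.00318) and was still called with the GC trend removed, at 1.02 (SE 0.24, adjusted p = 0.026). Dpp4, a surface peptidase whose human form binds adenosine deaminase, fell from 12, 12 and 32 to 0, 3 and 0 (log2 fold change -2.75, SE 0.55, adjusted p = 0.00636). It passed the filter through Het rods alone and so had to differ, its size depends on the pseudocount, and without any 1 of the Het rods it could not be tested. All 4 concentrative nucleoside transporters of the list were below the filter in every tested comparison.

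Against whole retina, 34 genes of the wider list could be tested in Het rods and 22 were called lower, but 13 of these had no Het rod library at a value of 10. They passed the filter through retina alone and so had to be lower. Of the other 21 genes, 9 were lower and 6 higher, where 36.8% of all genes tested were lower and 21.4% higher. In KO mice 33 could be tested and 12 passed through retina alone. Of the other 21 again 9 were lower and 6 higher, where the shares over all genes were 36.5% and 25.7%. In both genotypes the shares over all genes still hold genes that passed through retina alone. They are therefore not a like measure for these 21.

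Among the genes with Het rod values of 10 or more, the secreted phosphodiesterase gene Enpp2 was lower in Het rods by a log2 fold change of -5.02 (SE 0.46, limma adjusted p = 2.19e-05), with 13, 33 and 58 in Het rods and 1126, 987 and 1600 in Het retina. The AMP deaminase gene Ampd2 was lower by -3.32 (SE 0.32) and Ahcyl2 by -2.04 (SE 0.16). Genes that passed through retina alone are given by their values. The ectonucleotidase gene Entpd3 was at 0, 3 and 0 in Het rods and at 111, 132 and 88 in Het retina. Panx1, a channel gene for ATP release, was at 0, 1 and 5 against 109, 112 and 122, and the ADP receptor gene P2ry1 was at 1, 1 and 5 against 97, 66 and 119.

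The 6 genes that were higher in Het rods, named after their values were seen, were Alpl, Nt5c3, Ahcy, Ahcyl1, Adal and Hprt. Alpl, a surface phosphatase that can also remove phosphate from AMP, was at 5269, 6599 and 6257 in Het rods and 3200, 4276 and 2286 in Het retina (log2 fold change 1.18, SE 0.22, limma adjusted p = 0.00139). Hprt, which salvages hypoxanthine and guanine, was higher by 0.93 (SE 0.16). Ahcy, which releases adenosine from S-adenosylhomocysteine, was higher by 0.90 (SE 0.18). With scaling by library size alone Nt5c3, Ahcy, Ahcyl1 and Adal stayed above 0 but fell under the fold threshold.

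**Figure D4:**
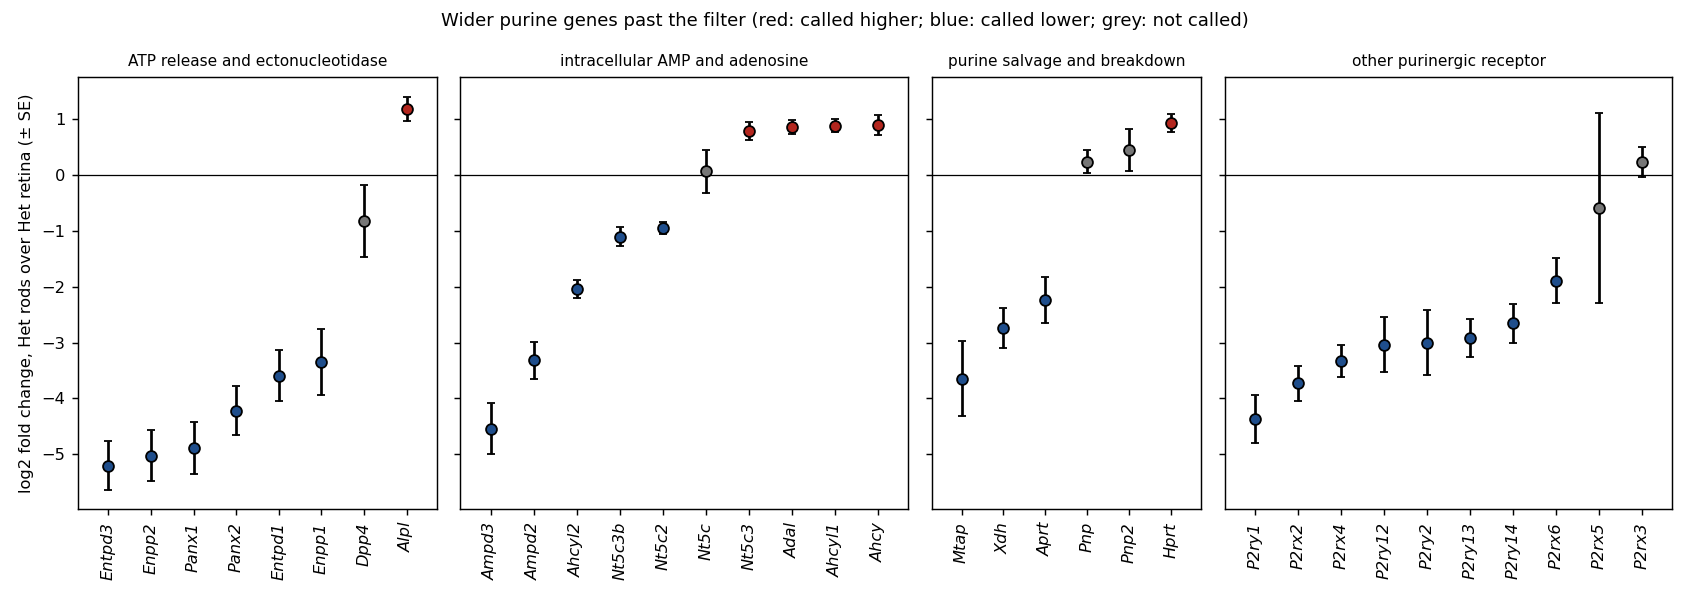
Log2 fold change of Het rods over Het retina with 1 SE (vertical axis) for the 34 wider purine genes past the filter, one panel per sub-list with genes ordered by value. Blue is called lower, red called higher and grey not called, by limma. The ectonucleotidase and receptor panels lie mostly below 0, with Alpl at 1.18 as the exception among the former, and 13 of the 22 genes called lower passed the filter through retina alone.

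The genes whose pattern was most like that of Slc29a1 were found by Pearson correlation of log2 values over the 12 libraries, given as a description. The points share 2 fractions and 2 genotypes and are not independent. The 5 highest were the unnamed gene ENSMUSG00000120992 (r = 0.93), Myo7a (0.91), Kifc5b (0.88), H2-T10 (0.87) and Gm18736 (0.85). After the mean of each fraction was removed they were Kifc1 (0.99), H2-D1 (0.96), Kifc5b (0.95), ENSMUSG00000120992 (0.95) and Erg28 (0.94). Myo7a encodes an unconventional myosin, Kifc1 a kinesin, and H2-D1 and H2-T10 are major histocompatibility class I genes. Kifc1 and Kifc5b, and the H2 genes, have close relatives with which reads could be shared, so their values are uncertain.

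Like Slc29a1, these genes had replicate 3 of Het rods apart from replicates 1 and 2. They were picked for likeness to Slc29a1 over these same libraries, so a shared pattern follows from the choice. H2-D1 had deposited values of 323, 519 and 2030 in Het rods against 5027, 5301 and 2564 in KO rods. Gm18736 was at 0, 0 and 86 in Het rods and at 1, 0 and 53 in Het retina, so here replicate 3 stood apart in both fractions, against 98, 108 and 54 in KO rods and 95, 99 and 38 in KO retina. Kifc1 had 48, 41 and 125 in Het rods against 170, 194 and 122 in KO rods. Replicate 3 was the lowest of the KO rods in these 3 genes, chosen as examples, but not in Myo7a, at 168, 282 and 215 in KO rods, and it was tied with replicate 1 in H2-T10. Among the other 9 members, the highest correlation after removing the fraction means was 0.65, for Adora2b, and the lowest was -0.70, for Adk.

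**Figure D5:**
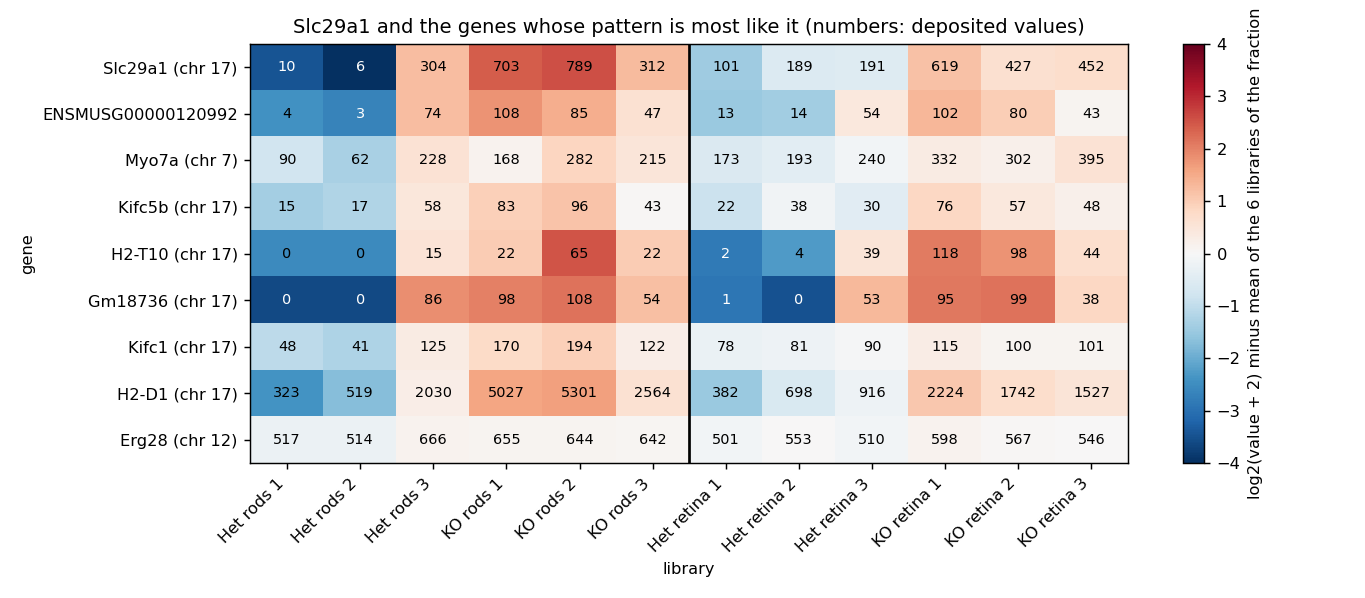
Slc29a1 and the 8 genes that are among the 5 most like it over the 12 libraries or among the 5 most like it after the mean of each fraction was removed, one row per gene with its chromosome where the annotation gives it and one column per library. Numbers are deposited values and colours are log2(value + 2) minus the mean of the 6 libraries of the fraction, with rods left and retina right of the line. Replicates 1 and 2 of Het rods are blue in every row, and replicate 3 of Het rods is nearer to the KO rods, as for Slc29a1 at 304. The other rows were picked for likeness to Slc29a1, so this follows from the choice.

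Slc29a1 lies on chromosome 17, and so did 11 of the 20 genes most like it over the 12 libraries and 9 of the 20 most like it within fractions, where chromosome 17 holds 4.81% of the 16784 candidates with a known chromosome. Of the 641 genes of that chromosome tested in KO against Het rods, 22.9% were called, against 13.1% of all. Both shares were taken with the GC trend left in, and the share of that chromosome with the trend removed was not tested. The nearest tested coding genes did not share the library pattern of Slc29a1. On one side, Slc35b2 was called higher in KO rods (log2 fold change 0.68, SE 0.14, limma adjusted p = 0.00776), while Hsp90ab1 was at 0.34 (SE 0.31) and Nfkbie at 0.26 (SE 0.23) and neither was called. On the other side, Tmem63b was called higher (0.53, SE 0.12, adjusted p = 0.0131), while Mrpl14 was at 0.40 (SE 0.16) and 1600014C23Rik at -0.34 (SE 0.29) and neither was called. Slc35b2, for example, had 193, 242 and 241 in Het rods against 334, 382 and 309 in KO rods, with no Het library apart from the rest.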

How the data were processed

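Whole-retina RNA and HA-immunopurified rod RNA were sequenced by the authors after SMART-Seq V4 cDNA synthesis. The submitters' processing notes list CASAVA 1.8.2, HISAT2, edgeR, DESeq2 and the GRCm39 build, and the counting tool and its strand setting are not given in the sources used here. The deposited values are a signal, read counts multiplied by 1 factor per library and rounded, as the near-equal totals and the spacing of low values show. They are not raw counts, so no count model was used. No columns of other samples were present (0).

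Values were scaled by TMM (trims of 0.3 and 0.05) over genes past the filter (10 in at least 3 libraries, sum of at least 15), and limma 3.58.1 in R 4.3.3, with trend and robust settings, was fitted to log2(value + 2) of the 2 groups compared, with Benjamini-Hochberg adjustment over all genes tested. Fold changes are on that scale and understate changes of low genes. A gene was called at an adjusted p under 0.05 with a change of more than 0.5 on the log2 scale. Replicates are separate samples per the labels. Nothing states that they are separate mice, so p-values measure the spread between these samples. The fit was tested on simulated data. The members and gene lists were chosen with earlier results of these data known. From each wider sub-list, at most the 3 largest called changes are named by rule, with the 3 nearest coding genes on each side of Slc29a1 and the 5 genes most like it by each measure.

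Same-numbered Het rods and Het retina deviated together (r = 0.468, 0.413 and 0.251), so their numbers pair them, from the data alone. The other comparisons were not paired by this check. Length, GC content, chromosome and neighbours came from GENCODE M21 on GRCm38, used for these properties and not for positions, because the builds differ. Figures were drawn with Python 3.11.15 and matplotlib 3.10.9. Estimated depths cover 11 libraries, since the factor of replicate 3 of Het retina could not be fixed, and they set counting error only.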

Additional observations from a re-analysis of the deposited data

How the results depend on the processing

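In KO against Het rods, the members called were 1 as reported, 2 with scaling by library size alone or with a value of at least 10 required in every library, and 0 with the GC trend removed, with or without the replicate block, and in 1 fit over all 12 libraries. Leaving out each replicate gave 1 to 3 members and 887 to 1943 genes in all, 887 without replicate 1 of Het rods and 1100 without replicate 2 of KO rods. With the GC trend removed 341 genes were called, 400 with the replicate block added, and 0 in the fit over 12 libraries. Slc29a1 ranged from 3.28 to 5.90 when each replicate was left out. Slc29a4 turned to -0.14 with the GC trend removed, with or without the block, and Slc29a3 to -0.011 and -0.22 between fractions with library size alone. In the fit over 12 libraries the adjusted p of Slc29a2, Aprt and Dpp4 was 0.198, 0.178 and 0.178.

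Between fractions, 4985 genes in Het mice and 5474 in KO mice were called when every library had to reach 10. Leaving out each replicate gave 5339 to 8729 and 5801 to 9405, with 5339 without replicate 1 of Het retina, 5801 without replicate 1 of KO retina and 6415 without replicate 2 of KO retina. Library size alone gave 1168 higher and 7399 lower genes in Het mice, against 3453 and 5923, and 1144 higher and 7846 lower in KO mice, against 4144 and 5889. Between retinas, leaving out each replicate gave 0 to 1 genes and a Slc29a1 log2 fold change of 1.35 to 1.84. The replicate block changed no call of a member other than that of Slc29a2 in Het mice. In the comparisons where the numbers do not pair the libraries, each library correlated best with its own number in 2, 2 and 1 of 3 cases. The cause of these changes was not tested. The worth of 3 reads, 1.93 to 4.37 units by library, limits Ada, Adora2a and, in rods, Adora2b.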

Other observations

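P2rx5, an ATP-gated channel gene of the wider purine list, had library values that did not follow genotype and was noticed after its values were seen. Its deposited values were 92, 111 and 0 for Het rods and 1, 59 and 64 for KO rods, and whole retina held 83, 78 and 14 for Het mice and 29, 52 and 67 for KO mice. Replicate 3 of Het rods and replicate 1 of KO rods were at or under the worth of 3 reads, and the lowest retina library of each genotype carried the same replicate number. No test is given.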
